A study of Mus musculus with 6 samples.

Results

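The genes Fos, Fosb, Fosl1, Fosl2, Jun, Junb, Jund and Atf3, which encode subunits of the transcription factor AP-1, were described in NIH3T3 cells, an immortalized line of mouse embryonic fibroblasts. They were chosen by name, with earlier results of these data known. They are 8 of the 55401 genes in the count files, and all 8 passed the filter on low counts. Bulk RNA-Seq of poly(A)-selected RNA was available from 2 libraries of empty vector cells given DMSO vehicle (EV), 1 library of cells with TAZ-CAMTA1 given DMSO (TC) and 3 libraries of TAZ-CAMTA1 cells given 10 μM aurintricarboxylic acid (TC + ATA). Cells grew untreated for 16 h and were then treated for 48 h. TAZ-CAMTA1 is a fusion oncoprotein of a vascular sarcoma, epithelioid hemangioendothelioma, that acts through TEAD factors, and ATA was tested as a compound that interferes with binding of TAZ to TEAD. NIH3T3 is a single fibroblast line and not the cell of origin of that tumour. There was no ATA-treated EV library, so the effect of ATA without the fusion was not measured.

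AP-1 is a dimer of basic leucine zipper proteins. The Jun proteins pair with each other or with Fos proteins, while the Fos proteins cannot form stable dimers among themselves and need a Jun partner. Dimers bind DNA sites of the type TGANTCA or, with ATF proteins, TGANNTCA. In fibroblasts Fos, Fosb, Junb and Atf3 are immediate early genes that serum or stress switches on for a short time, Fosl1 and Fosl2 follow later and last longer, and AP-1 often occupies enhancers together with TEAD, YAP and TAZ.

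All 8 genes are protein-coding and are given in GRCm38 coordinates of the GENCODE M21 annotation. Fos lies on chromosome 12 (85473890 to 85477273), Fosb on chromosome 7 (19302696 to 19310051), Fosl1 on chromosome 19 (5447547 to 5455946) and Fosl2 on chromosome 5 (32135801 to 32157842). Jun lies on chromosome 4 (95049034 to 95052222), Atf3 on chromosome 1 (191170296 to 191218039), and Junb (84974484 to 84978718) and Jund (70698949 to 70700616) share chromosome 8. Jun and Jund are annotated with a single exon. Exons of Fosl1 overlap Ccdc85b on the opposite strand over 1163 of 2033 bases, those of Jund overlap Gm11175 over 877 of 1668, those of Jun overlap Junos over 232 of 3189 and those of Junb overlap Prdx2 over 173 of 2301. Whether reads were counted by strand is not given in the sources used here, so reads in these overlaps cannot be assigned with certainty.

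RefSeq promoter windows (GRCm38.p6, 250 bases before to 50 after the start site) were found for 7 of the 8 genes. For Fos and Junb, which were lower in TC, Fosb, which was higher, and Jun, which was not called, stretches of 60 bases upstream of their start sites are shown, 5′ to 3′ on the gene's strand. Capitals mark the half-site TGACG of the cyclic AMP response element in Fos, Junb and Fosb, and a TGANNTCA match in Jun.

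Fos, chr12:85473798-85473857, plus strand: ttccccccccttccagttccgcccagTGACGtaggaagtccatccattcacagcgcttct
Junb, chr8:84978821-84978880, minus strand: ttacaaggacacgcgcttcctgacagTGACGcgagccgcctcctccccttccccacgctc
Fosb, chr7:19310072-19310131, minus strand: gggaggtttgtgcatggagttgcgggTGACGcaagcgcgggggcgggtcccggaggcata
Jun, chr4:95052234-95052293, minus strand: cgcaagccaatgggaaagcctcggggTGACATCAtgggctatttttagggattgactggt

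The capitals begin 66, 106, 60 and 45 bases before the start site, in the order printed. TGACG, searched on both strands, occurred in the windows of 4 of the 7 genes (Fos, Fosb, Junb and Atf3) and in 20.8% of all 32851 promoter windows. TGANNTCA, whose sites can include a TGACG, occurred in 2 of the 7 (Jun and Jund) and in 14.1% of all. TGANTCA (7.81% of all), the TEAD-type GGAATG on either strand (14.7%) and the CArG box bound by serum response factor (1.63%) had no match in these 7 windows. The windows of Atf3, Fosl2 and Jund, set by RefSeq start sites, do not contain the outermost gene start of the GENCODE annotation, so their matches, or lack of them, concern another stretch than that start. These are matches of letters in a short window and do not show binding.

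Library totals ran from 58471484 to 74413193 counts, so 3 counts correspond to between 0.0393 and 0.0528 CPM (counts scaled to the normalised library size). The 12 fibroblast markers examined summed to 15086 and 17240 CPM in EV, 19100 CPM in TC and 18735 to 19948 CPM in TC + ATA. Single markers differed in direction: in TC versus EV, 3 of the 12 were called higher (Col1a1, Col5a1 and Vim) and 4 lower (Thy1, Pdgfra, Lum and Fn1), with log2 fold changes from −1.47 for Thy1 to 0.64 for Vim, and their part in the results on AP-1 genes was not tested. The 6 epithelial markers summed to 0.380 and 0.628 CPM in EV, 1.20 CPM in TC and 0.933 to 1.28 CPM in TC + ATA, with Epcam at 0 to 4 counts. The 5 endothelial markers summed to 1.64 and 2.29, 3.62 and 2.75 to 3.37 CPM, and the 5 blood markers to 6.68 and 7.48, 5.60 and 3.85 to 9.48 CPM. Markers of other cell types were thus near 0 beside those of fibroblasts in all 6 libraries. Of the genes whose products are fused, Wwtr1, which encodes TAZ, had 110 and 104 CPM in EV, 139 CPM in TC and 129 to 131 CPM in TC + ATA, and Camta1 had 15.5 to 19.2 CPM throughout. Nothing in the labels says whether libraries of a group came from separate cultures, so the p-values measure the spread between these libraries, which may be technical. In bulk RNA, fewer cells with a transcript and less of it per cell cannot be told apart.

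**Figure D1:**
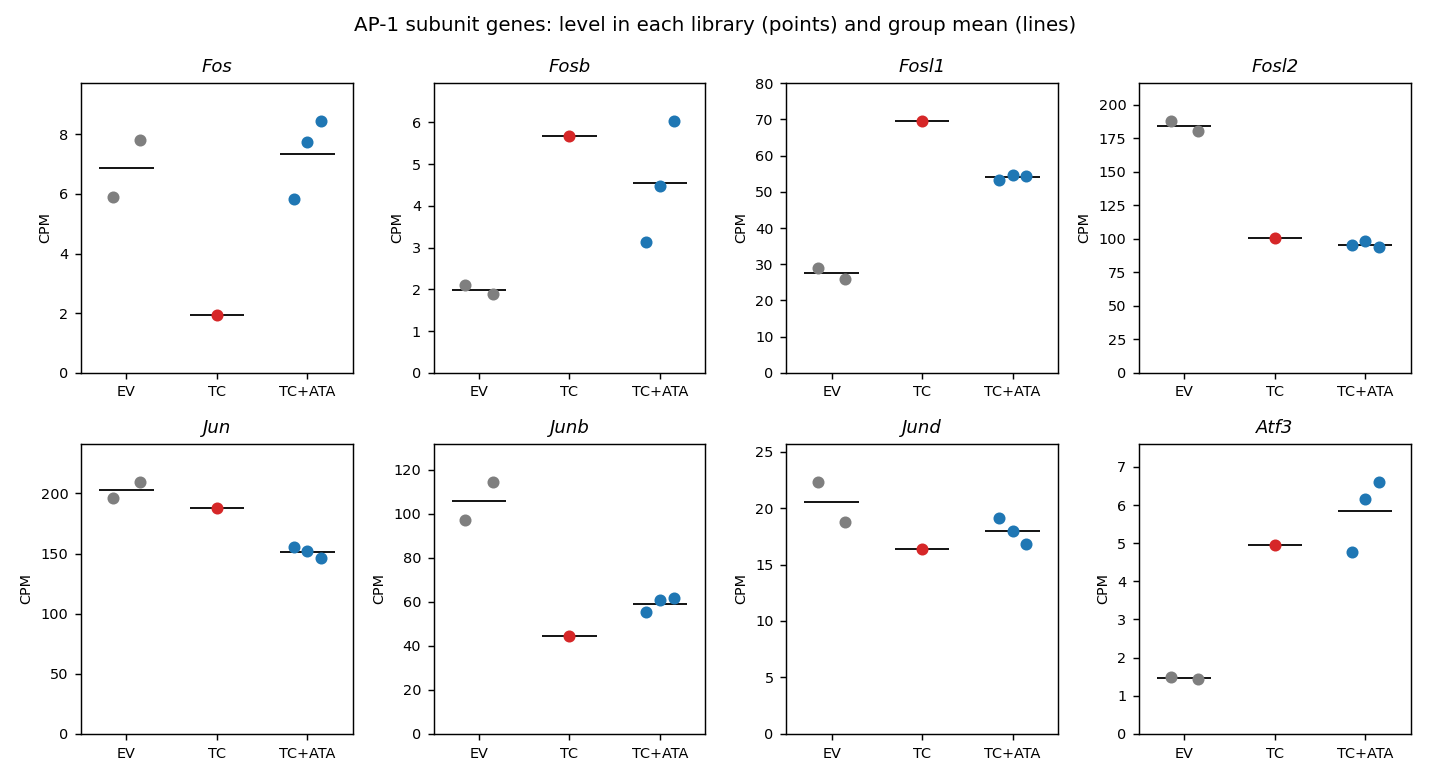
Level of each AP-1 subunit gene in CPM (y axis, from 0) in EV (grey), TC (red) and TC + ATA (blue), with 1 point per library and a line at the group mean. Fos in the TC library, at 1.93 CPM, lies below all other libraries (5.84 CPM or more), while Fosl1 and Atf3 lie above both EV libraries in TC and TC + ATA.

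The first comparison, TC versus EV, asks what the fusion does to AP-1 subunit expression. Fosl1, Fosb and Atf3 rose and Fos, Junb and Fosl2 fell in TC, while Jun and Jund did not pass the test. Of the 8 genes, 3 were higher and 3 lower, where 28.0% of the 18539 genes tested passed, 14.8% higher and 13.2% lower. The median log2 fold change was −0.22 over the 8 genes and −0.03 over all genes tested. None of the 8 reached the study's limit of 2 on the absolute log2 fold change, which 3.64% of all genes passed together with the adjusted p-value. TC has 1 library, so the spread came from EV and TC + ATA alone.

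Among the Fos genes, Fosl1, which encodes FRA-1, a Fos protein without a strong transactivation domain, had 29.1 and 26.0 CPM in EV and 69.6 CPM in TC. The TC library was above both EV libraries, with a log2 fold change of 1.34 (SE 0.09, adjusted p = 8.46e-06, quasi-likelihood F-test of edgeR). Ccdc85b, which overlaps it, went the other way, from 116 and 103 CPM to 72.5 CPM. Fosl2, which encodes FRA-2, had 188 and 180.2 CPM in EV and 100.4 CPM in TC, below both EV libraries, a log2 fold change of −0.87 (SE 0.08, adjusted p = 6.63e-05 from edgeR). The paralogs FRA-1 and FRA-2 thus had RNA changes of opposite sign.

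Fos, the prototype immediate early gene, had 5.91 and 7.82 CPM in EV and 1.93 CPM in TC, from 442, 596 and 134 counts. This was the lowest level of Fos in any of the 6 libraries and the largest change in size among the 8 genes, a log2 fold change of −1.83 (SE 0.28, adjusted p = 0.00126 from edgeR). Fosb, its closest relative in the family, had 2.10 and 1.89 CPM in EV and 5.66 CPM in TC, a log2 fold change of 1.51 (SE 0.32, adjusted p = 0.00744 from edgeR). The TC library was therefore high for Fosb and low for Fos.

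Among the Jun genes, Junb, which encodes a weaker activator that can counter c-Jun, had 97.3 and 114 CPM in EV and 44.5 CPM in TC. The TC library was below both, with a log2 fold change of −1.25 (SE 0.12, adjusted p = 7.42e-05 from edgeR). Prdx2, which overlaps 173 bases of it, also fell, by 0.67 on the log2 scale (adjusted p = 0.0225 from edgeR). Jun, which encodes the strongest activator of the family, had 196 and 209.8 CPM in EV and 188 CPM in TC, a log2 difference of −0.11 (95% confidence interval −0.31 to 0.08, adjusted p = 0.381 from edgeR). Jund, the Jun gene with the steadiest expression in resting cells, had 22.3 and 18.8 CPM in EV and 16.3 CPM in TC, a log2 difference of −0.33 (interval −0.64 to −0.03, adjusted p = 0.102 from edgeR). The TC value lay below both EV values for Jun and Jund as well, but by less than the test required. For both genes the outcome of the test changed when an EV library was left out. The log2 difference was −0.17 for Jun without EV replicate 1 and −0.45 for Jund without EV replicate 2. In those fits EV and TC hold 1 library each, so the spread came from TC + ATA alone.

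Atf3, a stress-induced member of the ATF family that pairs with Jun proteins, had 1.48 and 1.43 CPM in EV and 4.94 CPM in TC. Its TC level was above both EV levels, which differed little, and the log2 fold change was 1.76 (SE 0.22, adjusted p = 0.000418 from edgeR). The genes that are low in CPM here, Fos, Fosb and Atf3, had the widest intervals of the 8.

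**Figure D2:**
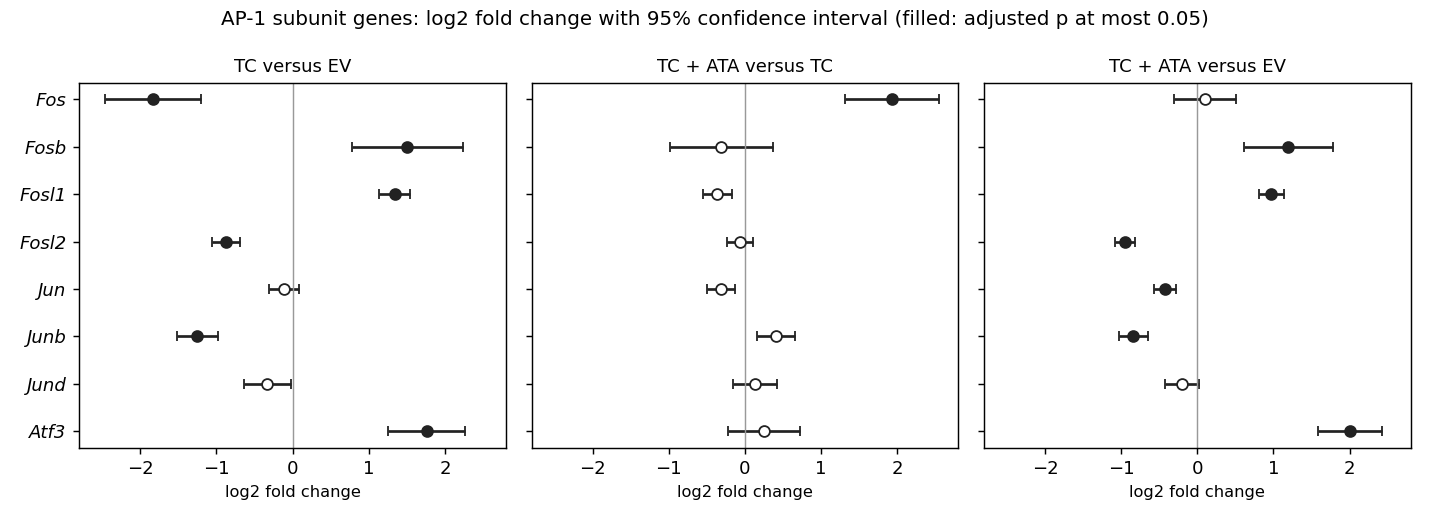
Log2 fold change (x axis) of each AP-1 subunit gene in the 3 comparisons, with 95% confidence intervals from the edgeR fit and filled points for an adjusted p of at most 0.05. In TC + ATA versus TC only Fos is filled, at 1.93, and in TC + ATA versus EV its interval of −0.31 to 0.51 includes 0.

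The second comparison, TC + ATA versus TC, asks what ATA does in cells that express the fusion. Fos was the 1 member that passed the test, higher with ATA, where 0.583% of all genes tested passed, 0.426% as higher. Its log2 fold change was 1.93, below the study's limit of 2. In this fit 0.0539% of all genes passed the adjusted p-value together with an absolute log2 fold change of at least 2. Without TC + ATA replicate 1 the log2 fold change of Fos was 2.07. This comparison contains the same TC library as the first, in the opposite role, so a low or high value in that library moves both. Fos had 1.93 CPM in TC and 5.84, 7.74 and 8.46 CPM with ATA, all above TC. The difference had an SE of 0.27 on the log2 scale (adjusted p = 0.0194 from edgeR). TC + ATA replicate 1, the library with the lowest total, was the lowest of the 3 in CPM for Fos, Fosb, Fosl1, Junb and Atf3. It was the highest for Jun and Jund. The Fos call was lost without TC + ATA replicate 2 (adjusted p = 0.0856 from edgeR) or replicate 3 (adjusted p = 0.111 from edgeR), with log2 fold changes of 1.89 and 1.82.

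Fosl1, Jun and Junb had differences that did not pass the test in this fit. Their TC + ATA libraries all lay on 1 side of the TC library, as did those of Fosl2 and Jund. TC has 1 library, and how many of all genes do so was not counted. Fosl1 had 53.1, 54.7 and 54.3 CPM in TC + ATA, below the 69.6 CPM of TC, a log2 difference of −0.37 (interval −0.56 to −0.18, adjusted p = 0.127 from edgeR). Jun had 156, 152 and 146 CPM, below the 188 CPM of TC, a log2 difference of −0.31 (interval −0.49 to −0.13, adjusted p = 0.169 from edgeR). Junb had 55.4, 60.6 and 61.6 CPM, above the 44.5 CPM of TC, a log2 difference of 0.41 (interval 0.16 to 0.66, adjusted p = 0.197 from edgeR). When EV was left out of the fit, all 3 passed (adjusted p = 0.00165 for Fosl1, 0.00122 for Jun and 0.00376 for Junb from edgeR). That fit takes the spread from the 3 TC + ATA libraries alone, which for these genes lay close together.

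The other genes showed no call in either fit. Fosb had 3.13, 4.47 and 6.04 CPM in TC + ATA, a range that contains the 5.66 CPM of TC, and a log2 difference of −0.31 (interval −0.99 to 0.37, adjusted p = 0.801 from edgeR). Atf3 had 4.77, 6.15 and 6.61 CPM around the 4.94 CPM of TC, a log2 difference of 0.24 (interval −0.23 to 0.72, adjusted p = 0.776 from edgeR). Fosl2 had 95.2, 98.0 and 93.9 CPM, just below the 100.4 CPM of TC, with an interval of −0.24 to 0.10 for the log2 difference (adjusted p = 0.830 from edgeR). Jund had 19.1, 17.9 and 16.8 CPM, just above the 16.3 CPM of TC, with an interval of −0.15 to 0.42 (adjusted p = 0.796 from edgeR). The intervals of these 4 genes all lay between −0.99 and 0.72 on the log2 scale.

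The third comparison sets TC + ATA against EV, in which both groups have replicates. Here 36.6% of all genes tested passed, and 3.87% also had an absolute log2 fold change of at least 2, which among the 8 genes Atf3 reached. Of the 8 genes, Fosl1, Fosb and Atf3 were higher than in EV (log2 fold changes 0.97, 1.19 and 2.01) and Fosl2, Junb and Jun were lower (−0.94, −0.84 and −0.43), with adjusted p-values of at most 0.00614 from edgeR. For these 6 genes every TC + ATA library lay on the same side of both EV libraries, but how many of all genes do so was not counted. Jun, which had 196 and 209.8 CPM in EV and 146 to 156 CPM in TC + ATA, is the 1 gene called here that was not called in TC versus EV (SE 0.06, adjusted p = 0.000753 from edgeR).

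Fos was at 5.84 to 8.46 CPM in TC + ATA and at 5.91 and 7.82 CPM in EV. These ranges overlapped, and the log2 difference was 0.10 (interval −0.31 to 0.51, adjusted p = 0.705 from edgeR). Jund also overlapped, at 16.8 to 19.1 CPM against 18.8 and 22.3 CPM, with a log2 difference of −0.20 (interval −0.42 to 0.03, adjusted p = 0.157 from edgeR). For Junb, the TC + ATA libraries at 55.4 to 61.6 CPM lay between TC at 44.5 CPM and EV at 97.3 and 114 CPM. For Fosl1 the order was the reverse, with TC + ATA between EV and TC. The TC + ATA and TC values each come from their own libraries, but both are set against the same 2 EV libraries.

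The composition of AP-1 subunit RNA was compared within each library after counts were divided by the exonic length of each gene, which allows levels of different genes to be set side by side. In EV, the level per kilobase was highest for Jun (61.5 and 65.8 CPM per kb), followed by Junb (42.3 and 49.8), Fosl2 (19.4 and 18.6), Fosl1 (14.3 and 12.8), Jund (13.4 and 11.3), Fos (2.51 and 3.32), Atf3 (0.689 and 0.664) and Fosb (0.336 and 0.303). The ranges of Fosl1 and Jund over the EV libraries overlapped, although Fosl1 was above Jund within each of them. The ranges of the other neighbours did not overlap. In TC, Fosl1 stood second at 34.3 CPM per kb, behind Jun at 58.9, and Fos was the lowest at 0.821. In TC + ATA, Jun was highest at 45.8 to 48.8 CPM per kb, and Fosl1 (26.1 to 26.9) and Junb (24.1 to 26.8) overlapped in second place, as did Jund (10.1 to 11.5) with Fosl2 (9.70 to 10.1) and Fos (2.48 to 3.60) with Atf3 (2.21 to 3.07). These overlaps are between libraries. Within each TC + ATA library Jund was above Fosl2 and Fos above Atf3, while the order of Fosl1 and Junb differed between libraries. These orders hold for the full exonic length alone. By the exonic length outside other genes, Fosl1 stood above Jun in TC (40.1% against 31.8% of the 8 genes) and in TC + ATA (34.5% against 28.4%). Only the length was cut and the counts were kept whole, so this sets Fosl1 too high if reads in the shared bases were counted for it. If those reads were left out of the counts, the full exonic length sets Fosl1 too low. By coding length, Fosl2 stood second to Jun in TC (22.8% against 41.6%) and in TC + ATA (23.8% against 36.7%), with Fosl1 at 18.9% and 16.1%.

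**Figure D3:**
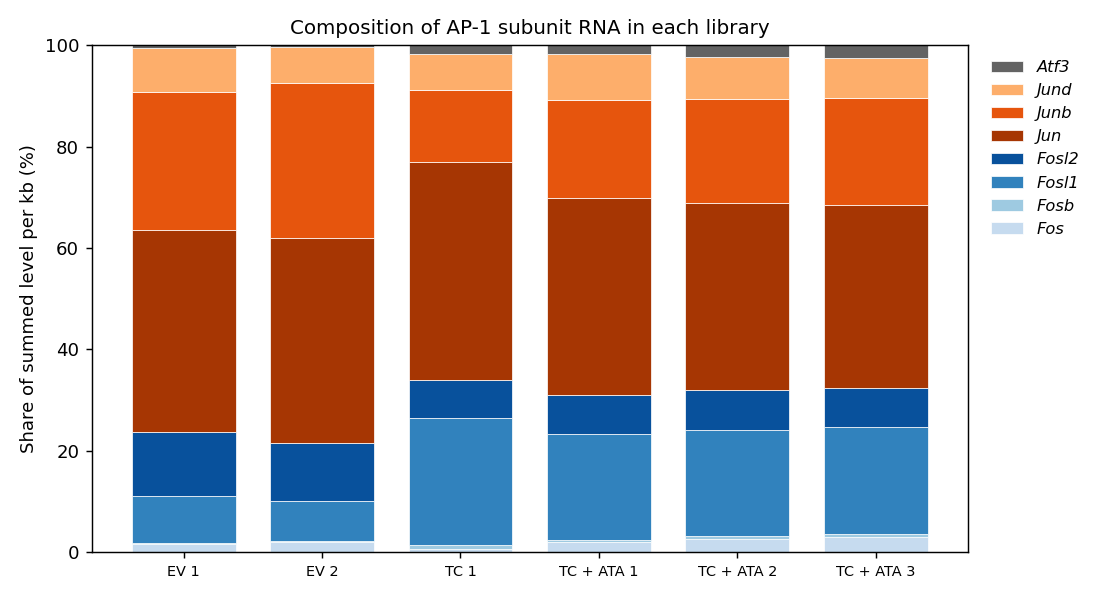
Share of each gene (percent, y axis) in the summed level per kilobase of the 8 AP-1 subunit genes, 1 bar per library. The Fosl1 band widens from a mean of 8.56% in EV to 25.1% in TC and 20.9% in TC + ATA, while the Junb band goes from 29.0% to 14.2% and 20.3%.

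Expressed as shares of the summed level per kilobase of the 8 genes, Fosl1 made up 8.56% ± 0.979 (SD, n = 2) in EV, 25.1% in TC and 20.9% ± 0.128 (SD, n = 3) in TC + ATA. Junb made up 29.0% ± 2.28 (SD, n = 2), 14.2% and 20.3% ± 0.993 (SD, n = 3), and Fosl2 12.0% ± 0.793 (SD, n = 2), 7.59% and 7.79% ± 0.113 (SD, n = 3). By the full exonic length, Jun was the largest component in all 6 libraries, at 40.2% ± 0.481 (SD, n = 2), 43.1% and 37.4% ± 1.40 (SD, n = 3). Fos made up 1.84% ± 0.295 (SD, n = 2) in EV, 0.601% in TC and 2.46% ± 0.438 (SD, n = 3) in TC + ATA. As a share of undivided counts in the TC library, Fos held 0.448% of the 29926 counts of the 8 genes (95% Wilson interval 0.378% to 0.530%) and Fosl1 16.2% (15.7% to 16.6%), intervals that cover counting error only. The exonic length outside other genes leaves out the bases that Fosl1 shares with Ccdc85b, while any reads counted there stay in. By that length, Fosl1 made up 15.9% in EV, 40.1% in TC and 34.5% in TC + ATA. The level of Fosl1 against the other genes thus depends on the length used, and the order of the groups does not. No test was made of the shares.

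The exchange was sharpest inside the Fos family. Fosl1 made up 39.1% and 36.5% of the level per kilobase of the 4 Fos genes in EV, 73.9% in TC and 65.2% to 67.1% in TC + ATA. Fosl2 went the other way, from 53.1% in both EV libraries to 22.4% in TC and 23.7% to 25.2% in TC + ATA. The ratio of Fosl1 to Fosl2 was 0.736 and 0.687 in EV, 3.30 in TC and 2.66 to 2.75 in TC + ATA. How this ratio compares between libraries does not depend on the lengths used, although each value of it, and the shares above, do. By coding length Fosl2 stayed above Fosl1 in TC, at 22.8% against 18.9% of the 8 genes, and in TC + ATA, at 23.8% against 16.1%. Undivided counts gave the same order, at 23.3% against 16.2% in TC and 24.2% against 13.7% in TC + ATA. Inside the Jun family, the ratio of Junb to Jun was 0.688 and 0.756 in EV, 0.329 in TC and 0.493 to 0.585 in TC + ATA, so the TC + ATA libraries lay between the others.

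Summed over the family, the 3 Jun genes had 117 and 127 CPM per kb in EV, 88.0 in TC and 82.6 to 84.7 in TC + ATA. The 4 Fos genes had 36.6 and 35.0 CPM per kb in EV, 46.3 in TC and 38.9 to 41.0 in TC + ATA. The Jun genes therefore held 77.3% ± 1.51 (SD, n = 2) of the level of these 7 genes in EV, 65.5% in TC and 67.5% ± 0.788 (SD, n = 3) in TC + ATA. This difference depended on gene length. With undivided counts the shares were 59.9%, 58.3% and 58.5%, and with the exonic length outside other genes 72.8%, 53.3% and 57.2%, in the same order of groups.

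Other genes around AP-1 were counted in 4 lists of basic leucine zipper partners, upstream regulators, immediate early genes and reported AP-1 targets. The lists were also chosen with earlier results of these data known. In TC versus EV, 3 of 13 tested partners passed the test as higher and 1 as lower, with a median log2 fold change of −0.03. Together these are 4 of 13, near the 28.0% of all genes called, so the count is no result about the list. Maff and Mafk, small Maf proteins that lack a transactivation domain, rose by log2 fold changes of 2.19 and 1.83 (adjusted p = 4.95e-07 and 1.09e-06 from edgeR). Jdp2, a repressor that pairs with Jun proteins, rose by 0.46 (adjusted p = 0.00317 from edgeR), and Maf, a large activating Maf protein, fell by 1.67 on the log2 scale (adjusted p = 8.64e-05 from edgeR).

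Of the 25 upstream regulators, 6 rose and 1 fell in TC, with a median log2 fold change of 0.06. These 7 of 25 match the 28.0% of all genes called. Dusp4, a nuclear phosphatase that inactivates MAP kinases, had 26.6 and 27.7 CPM in EV, 119 CPM in TC and 108 to 118 CPM in TC + ATA. Between TC and EV the log2 fold change was 2.14 (adjusted p = 6.38e-07 from edgeR). Map2k1, which encodes the kinase MEK1, and Elk4, a partner of serum response factor, rose by 0.60 and 0.52, and Dusp5, a nuclear phosphatase of ERK, by 0.50 (adjusted p = 0.000373, 0.00391 and 0.0178 from edgeR). Mapk3, which encodes ERK1, fell by 0.42 on the log2 scale (adjusted p = 0.0146 from edgeR). Srf, which encodes serum response factor, had a log2 difference of −0.01 (adjusted p = 0.931 from edgeR).

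Of the 18 other immediate early genes, 8 rose and 6 fell in TC, with a median log2 fold change of 0.02, where 14.8% of all genes were called higher and 13.2% lower. Maff, Csrnp1, Ier3 and Ccn1 had the largest increases (2.19, 1.50, 1.37 and 1.36). Nr4a2, Egr2, Ier2 and Egr1 had the largest decreases (−1.92, −1.68, −1.50 and −1.31). All of these had adjusted p-values of at most 0.00231 from edgeR. Maff was also counted among the partners above. Egr1, a zinc finger factor induced with Fos, had 343 and 368 CPM in EV, 143 CPM in TC and 199 to 228 CPM in TC + ATA. Like Junb, it had its TC + ATA libraries between TC and EV. Its difference in TC + ATA versus TC did not pass the test (log2 difference 0.56, adjusted p = 0.0545 from edgeR).

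Of 29 reported AP-1 targets, 23 were tested in TC versus EV, of which 12 were higher and 6 lower (14.8% and 13.2% of all genes), with a median log2 fold change of 0.64. Fosl1 is itself in this list. Ccnd1, Plaur and Ezr were among those that rose, by log2 fold changes of 1.96, 1.88 and 1.51 (adjusted p-values of at most 2.5e-06 from edgeR). They encode cyclin D1, the urokinase receptor and the membrane linker ezrin. Mmp9, Tnc, Fgf7 and Sphk1 fell most, by 2.73, 2.19, 2.03 and 0.79 on the log2 scale (adjusted p-values of at most 0.00205 from edgeR). These encode a gelatinase, tenascin C, a growth factor for epithelial cells and a sphingosine kinase, and the collagenase genes Mmp1a, Mmp1b and Mmp13, classical targets, had too few counts to be tested.

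**Figure D4:**
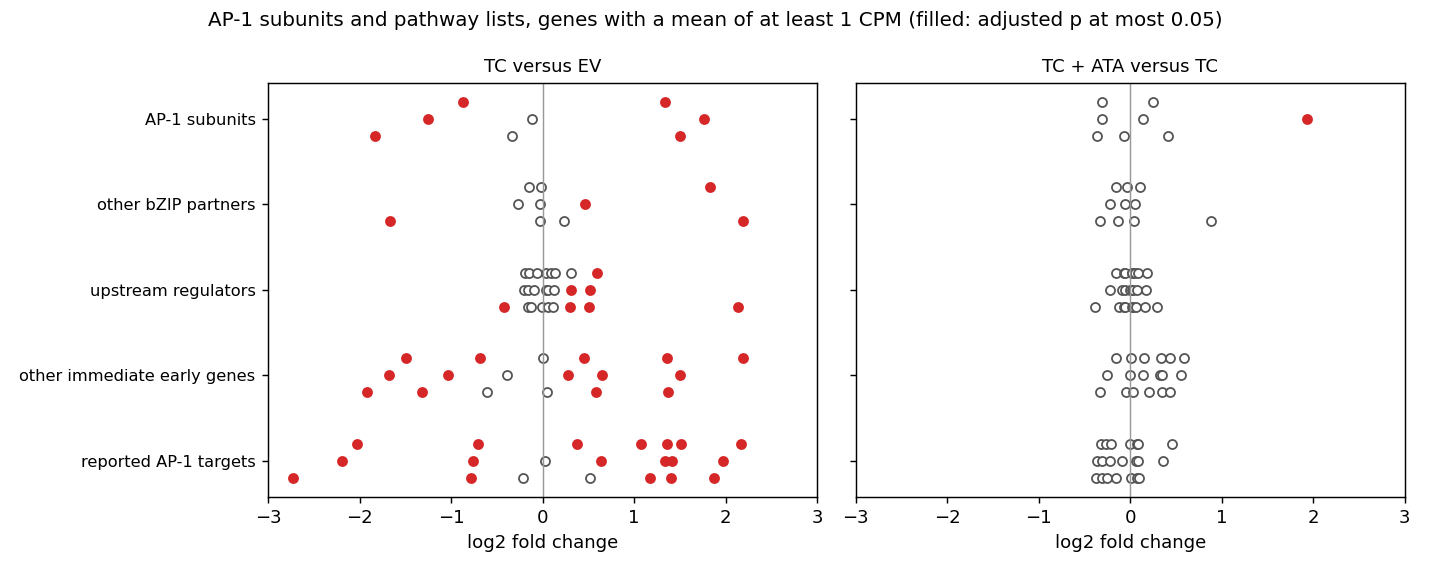
Log2 fold change (x axis) of the AP-1 subunit genes and of 4 lists of related genes with a mean of at least 1 CPM, in TC versus EV (left) and TC + ATA versus TC (right), with 1 point per gene and filled points for an adjusted p of at most 0.05. In TC + ATA versus TC the single filled point is Fos, at 1.93.

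In TC + ATA versus TC, edgeR called no gene in any of these 4 lists. At an unadjusted p under 0.05 there were 3 of 13 partners, 3 of 25 regulators, 8 of 18 immediate early genes and 8 of 23 targets, against 1781 of 18539 genes in all. DESeq2 called 1 partner, 1 immediate early gene and 1 target higher and 1 target lower. In TC + ATA versus EV, 3 partners were higher and 2 lower, 6 regulators higher and 3 lower, 9 immediate early genes higher and 7 lower, and 13 targets higher and 6 lower, where 18.0% of all genes were higher and 18.6% lower. The 5 of 13 partners and 9 of 25 regulators called lay near the 36.6% called over all genes. Ccnd1, with 216 and 200.4 CPM in EV, had 813 CPM in TC and 663 to 697 CPM in TC + ATA.

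The genes whose pattern over the 6 libraries was most like that of Fos were found by the Euclidean distance between centred log2 CPM, among 10423 tested genes with a mean of at least 5 CPM. They were Ccn5 (distance 0.578), Irf5 (0.685), Id4 (0.797), Atoh8 (0.826) and Daam2 (0.867), none of which is an AP-1 gene. Since they were picked for likeness to Fos over these same libraries, their lower values in TC and higher values in TC + ATA are a description and were fixed by the choice. The choice also favoured small log2 differences in TC + ATA versus EV, which were 0.25, −0.06, −0.30, 0.06 and −0.06. Unlike Fos, Id4 was called lower there (adjusted p = 0.0211 from edgeR), and the other genes were not called. These 6 libraries fall into 3 groups, and a pattern that sets 1 library apart is shared by every gene with a low value in it.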

How the data were processed

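Bulk RNA-Seq was measured in 6 libraries. The authors aligned paired-end reads to GRCm38.p6 with HISAT2 (version 2.2.1 in the submitters' processing notes) and deposited raw counts per gene from featureCounts, without normalization. The annotation release, strand setting and treatment of reads matching several genes are not given in the sources used here. Groups and replicate numbers came from the sample titles. Symbols and lengths came from GENCODE M21, which names 55141 of the 55401 identifiers. Of 2 identifiers named Ddit3, the protein-coding one with the lower number was used.

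From these counts, edgeR 4.0.16 in R 4.3.3 was run on all 6 libraries (TMM, filterByExpr, glmQLFit, glmQLFTest), with Benjamini-Hochberg adjustment over 18539 genes and calls at an adjusted p of at most 0.05. Standard errors came from the F statistic, with 3 residual degrees of freedom before moderation. CPM are counts scaled to the TMM library size. The code was tested on simulated data for TC versus EV, where it recovered 123 of 200 changed genes (61.5%) with 7 false calls.

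The genes and lists were chosen with earlier results of these data known. Named are the 8 genes, up to 4 genes called per list and direction with a mean of at least 1 CPM, the 5 genes most like Fos, and Wwtr1 and Camta1. Of these, 1 gene is not reported here. Srf, the overlapping genes, Epcam and the 3 collagenase genes were named after their values were seen, and so was the TGACG motif. Alternatives were other scalings, filters, DESeq2 1.42.0, fewer libraries, a replicate block and other gene lengths. Library totals were at least 58471484 counts, and Fos, Fosb and Atf3 rest on 109 to 596 counts per library.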

Additional observations from a re-analysis of the deposited data

How the results depend on the processing

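Of 312 recomputed log2 fold changes of the 8 genes, 290 kept their direction and their side of the threshold. The 3 that changed sign were all of Fos in TC + ATA versus EV, where it was not called: −0.0149 with the replicate block, −0.0977 without EV replicate 1 and −0.0108 without TC + ATA replicate 3 (highest 0.3288, without EV replicate 2). In both comparisons with EV, 3 genes were called higher in all alternatives and 3 or 4 lower. In TC + ATA versus TC, 1 gene was called higher and 0 lower. The higher count was 2 (Fos and Junb) with DESeq2, with only the groups compared and with genes of at least 1 count, and the lower count was 2 with only the groups compared and 1 with genes of at least 1 count. With each replicate left out in turn, these counts ran from 0 to 2 and from 0 to 2. They were 0 higher without TC + ATA replicate 2 or 3, and 2 higher and 2 lower without either EV replicate, where EV adds nothing to the spread. The replicate block, with the numbers EV and TC + ATA share in their labels, changed no call of the 8 genes (Fos in TC + ATA versus TC 1.60, adjusted p = 0.0317 from edgeR). EV and TC + ATA libraries of the same number did not deviate together (mean correlation across genes −0.0576).

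Over all genes, TC + ATA versus TC gave 79 higher and 29 lower, against 7 to 808 and 3 to 762 over the alternatives (DESeq2 236 and 84). TC versus EV gave 2735 and 2456, and 1717 and 1467 with the block. TC + ATA versus EV gave 3449 lower, and 2195 with the block. Scaling by library size alone shifted the median of TC versus EV by −0.11 (log2), gave 2072 higher and 3159 lower, and called Jund lower (adjusted p = 0.0306 from edgeR). In the related lists, none called in TC + ATA versus TC rose to at most 4 higher and 7 lower, upstream regulators in TC versus EV (6 higher, 1 lower) ran from 3 to 10 and 0 to 5, and in TC + ATA versus EV (6 and 3) from 5 to 9 and 0 to 6. Partners called lower ran from 1 to 3 (main 1) and 1 to 4 (main 2).

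The share of the Jun genes among the 7 Fos and Jun genes was 77.3% in EV, 65.5% in TC and 67.5% in TC + ATA. It was 59.9%, 58.3% and 58.5% without division by length, 58.6%, 55.8% and 56.4% by coding length, 75.3%, 62.8% and 64.5% without Jund and, chosen after the data were seen, 72.8%, 53.3% and 57.2% by exonic length outside other genes. With each replicate left out it ran from 76.2% to 78.4% in EV and from 67.1% to 67.9% in TC + ATA. The order of the groups was the same by each length.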
